A study of Mus musculus with 16 samples.

Results

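Genes that set the activity of the mitotic kinase CDK1 or run the anaphase-promoting complex were followed under high or normal oxygen. The labels name the cells as primary alveolar type II cells. The 10 genes were Cdk1, Wee1 and Cdc25c (the kinase and 2 enzymes that switch it off and on), Cdc20 and Fzr1 (activators of the complex), Fbxo5 (its inhibitor), Ube2c and Ube2s (its ubiquitin-conjugating enzymes), and Pttg1 and Espl1 (securin, which the complex destroys, and separase, which is then free). They were found by gene name on the array, among 34781 names of which 25415 were bright enough to be tested. Of those 25415, called genes below, 17308 were named through RefSeq and the rest carry the array file's own name. All 10 had at least 1 probe and all 10 passed the filter on dim probes: the probe used for each was well above background on all 16 arrays. They have 15 probes in all, and the brightest probe of each gene over the 16 arrays was used, with the other 5 probes as a check.

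By their labels, the arrays held RNA of type II cells, the surfactant-making cells of the lung alveolus, from mice of strain C57BL/6. The dye was Cy3, in 1 colour. There were 4 groups of 4 arrays: hyperoxia (85% O2) for 24 h, normoxia (21% O2) for 24 h, hyperoxia for 6 h and normoxia for 6 h. Strain, tissue and cell type were the same in every group, and the labels give no genetic change, no drug and no age, nor whether cells in culture or animals were exposed. The labels do not say whether the 4 replicates of a group came from separate animals or cultures, so p-values measure the spread between these arrays, which may be technical. Unless said otherwise, values are log2 signal relative to the array's own 75th percentile, so a value of 0 is a signal at that percentile. A gene is said to rise or fall where its limma p, adjusted over all 25415 genes by Benjamini-Hochberg, was under 0.05.

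The 24 h arrays all lay on 1 slide and the 6 h arrays all on another, and on each slide hyperoxia and normoxia filled different rows. The effects of time and slide, and of oxygen and row, cannot be told apart. The 75th percentile of signal lay between 556 and 801 at 24 h and between 899 and 1021 at 6 h, and 53.7% to 69.0% of probes were well above background, least on normoxia 24 h replicate 3. Of 10 type II markers, 9 were well above background in hyperoxia at 24 h, 8 in normoxia at 24 h and 9 in both groups at 6 h, while Slc34a2, a phosphate transporter of these cells, was well above background on no array. The summed signal of the type II markers, in multiples of the 75th percentile, was 29.3 to 36.4 in hyperoxia and 39.5 to 45.1 in normoxia at 24 h, and at 6 h 56.2 to 80.4 in hyperoxia and 60.0 to 73.9 in normoxia. The sum of 7 fibroblast and smooth muscle markers, all detected in every group, was 1419 to 1546 in hyperoxia and 1550 to 1786 in normoxia at 24 h, and at 6 h 847 to 1111 in hyperoxia and 903 to 1064 in normoxia. At 24 h neither sum overlapped between hyperoxia and normoxia, and both were lower in hyperoxia, while the sums for type I cells, endothelium, macrophages, neutrophils, lymphocytes and airway cells overlapped. Members of these lists went both ways. Of 9 tested type II markers 4 fell (Sftpb, Lamp3, Etv5 and Lpcat1) and Abca3 rose, and the means of Sftpc (1.84 in hyperoxia, 1.39 in normoxia), Sftpd (0.48 in hyperoxia, 0.03 in normoxia) and Sftpa1 (-3.82 in hyperoxia, -4.61 in normoxia) were higher in hyperoxia without passing the test. None of the 7 fibroblast markers passed. In lists whose sums overlapped, Cd68 (macrophages), S100a8 (neutrophils) and Scgb1a1 (airway cells) rose and Egfl7 (endothelium) fell. No type I or lymphocyte marker passed. Of all 25415 genes 12.8% were called lower and 15.5% higher in hyperoxia at 24 h. The sum of 6 macrophage markers, all detected in every group and with Itgam by far the brightest, was 64.6 to 72.3 in hyperoxia and 51.6 to 66.8 in normoxia at 24 h, and at 6 h 18.9 to 31.4 in hyperoxia and 20.4 to 25.2 in normoxia. In bulk RNA fewer cells of a type and less RNA per cell cannot be told apart. The fibroblast and smooth muscle sum was above the type II sum in every group, though signals of unlike probes do not give cell shares. Which cells carried the changes below was not tested.

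As background, a cell enters mitosis when CDK1 bound to a B-type cyclin is freed from inhibitory phosphates, which WEE1 adds and CDC25 phosphatases remove. It leaves mitosis when the anaphase-promoting complex (APC/C), a ubiquitin ligase started by CDC20 and kept active by the FZR1 protein, marks securin and cyclin B for destruction. Transcripts of many of these genes rise in G2 and mitosis, and 2 promoter elements are known for this: the cell cycle genes homology region (CHR), contacted by the MuvB complex, and the CCAAT box, bound by the factor NF-Y.

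Promoter sequence was at hand for 8 of the 10 genes, from RefSeq on the mouse build GRCm38.p6; Wee1 and Cdc25c were not in that table. The 250 bases before each transcript start were searched on both strands for the CHR (TTTGAA or TTCGAA), the NF-Y box (CCAAT) and 2 forms of the E2F site (TTTCCCGC or TTTGGCGC). The last 160 bases before the start are printed 5′ to 3′ on the gene's strand for the genes that hold both elements and for 3 of the 4 that do not. Capitals mark a match to the CHR or the NF-Y box on either strand, ATTGG being the NF-Y box and TTCAAA the CHR read on the other strand. They lie at chr10:69352913-69353072 (minus strand), chr4:118437344-118437503 (minus), chr2:164769769-164769928 (plus), chr15:102296133-102296292 (plus), chr10:5805466-5805625 (minus), chr10:81378371-81378530 (minus) and chr11:43425982-43426141 (minus).
Cdk1: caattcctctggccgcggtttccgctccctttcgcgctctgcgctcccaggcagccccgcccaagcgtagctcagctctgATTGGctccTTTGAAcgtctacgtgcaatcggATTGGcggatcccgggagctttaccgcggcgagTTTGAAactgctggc
Cdc20: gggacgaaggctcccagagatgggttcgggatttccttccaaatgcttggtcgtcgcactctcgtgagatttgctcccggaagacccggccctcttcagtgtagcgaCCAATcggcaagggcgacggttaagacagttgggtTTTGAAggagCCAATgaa
Ube2c: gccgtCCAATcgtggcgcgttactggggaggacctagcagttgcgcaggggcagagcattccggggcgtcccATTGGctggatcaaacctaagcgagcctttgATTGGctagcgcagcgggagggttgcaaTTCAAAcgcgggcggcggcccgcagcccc
Espl1: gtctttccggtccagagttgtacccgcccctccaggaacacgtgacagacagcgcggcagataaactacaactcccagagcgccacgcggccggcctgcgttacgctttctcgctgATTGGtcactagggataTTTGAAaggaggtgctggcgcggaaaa
Fbxo5: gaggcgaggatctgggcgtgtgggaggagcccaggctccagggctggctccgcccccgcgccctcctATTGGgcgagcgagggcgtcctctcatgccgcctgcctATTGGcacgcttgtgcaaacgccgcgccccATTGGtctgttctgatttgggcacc
Fzr1: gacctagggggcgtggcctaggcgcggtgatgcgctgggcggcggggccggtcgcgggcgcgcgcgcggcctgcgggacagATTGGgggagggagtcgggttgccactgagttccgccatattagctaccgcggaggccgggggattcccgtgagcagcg
Pttg1: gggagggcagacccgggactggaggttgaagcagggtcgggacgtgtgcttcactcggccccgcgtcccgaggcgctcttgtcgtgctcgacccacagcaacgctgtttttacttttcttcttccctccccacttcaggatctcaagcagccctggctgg

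Cdk1, Cdc20, Ube2c and Espl1 held both elements, with a CHR 15 to 10, 18 to 13, 29 to 24 and 27 to 22 bases before the start in that order. Cdk1 also held a CHR 71 to 66 bases before the start. The Fbxo5 window held 3 NF-Y boxes and no CHR, the Fzr1 window 1 NF-Y box and no CHR, and the Pttg1 window neither. Ube2s held a CHR (TTCGAA) 162 to 157 bases before the start and no NF-Y box. In Ube2c, 2 of 6 NF-Y boxes overlapped by 2 bases. The CHR stood in 5 of 8 of these windows and in 17.1% of the 32851 promoter windows of the table, and the NF-Y box in 6 of 8 and 33.8%. Both together stood in 4 of 8 and 6.02%. No E2F match was found in the 8 windows (1.3% of all). A match is a match of letters only.

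**Figure D1:**
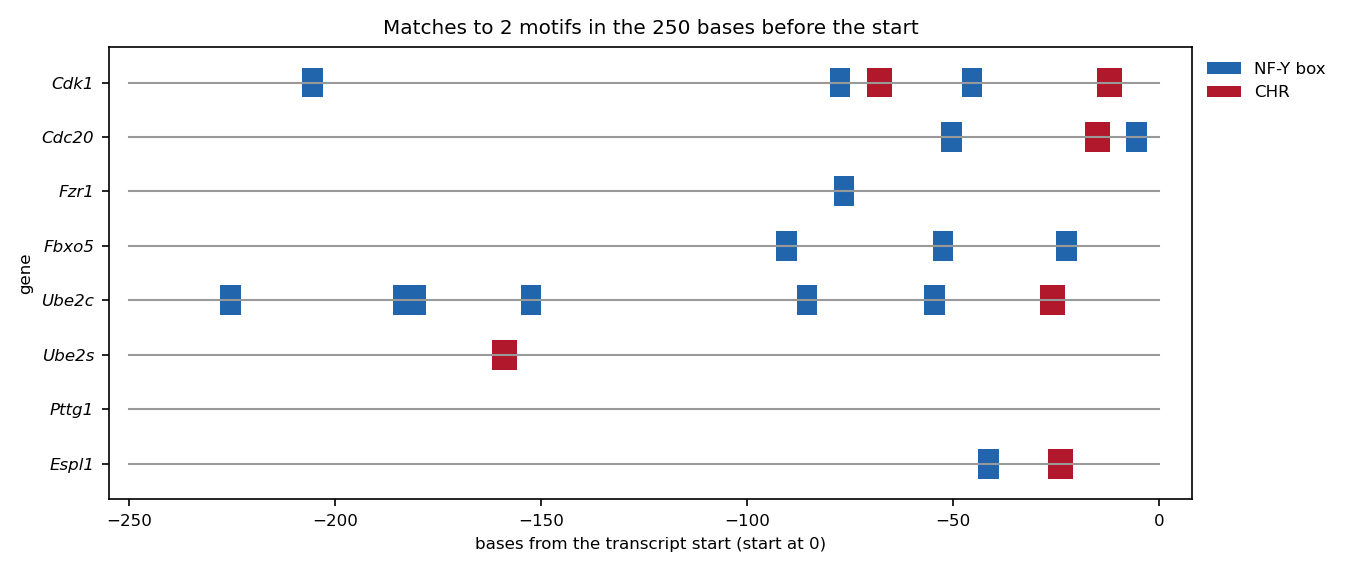
Matches to the CHR (red) and the NF-Y box (blue) in the 250 bases before the transcript start of 8 genes; the x axis is the distance from the start in bases. Cdk1, Cdc20, Ube2c and Espl1 hold both elements, and Pttg1 holds neither.

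At 24 h, 8 of the 10 genes were lower in hyperoxia than in normoxia, 1 (Pttg1) was higher and 1 (Fzr1) did not pass the test. Among all 25415 genes 12.8% were called lower and 15.5% higher in this comparison, 28.3% in either direction. The median log2 fold change of the 10 genes was -1.52, against 0.0051 over all genes. Hyperoxia and normoxia arrays did not overlap for 7 genes that were lower and 1 that was higher, against 15.3% and 17.9% of all genes. The largest fall was that of the inhibitor Fbxo5 and the smallest that of the elongating enzyme Ube2s.

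Beside the marker sums given above, whose members went both ways, the sum of 3 proliferation markers (Mki67, Top2a and Pcna) was 13.2 to 15.4 in hyperoxia and 37.8 to 47.8 in normoxia. At 6 h that sum was 48.7 to 56.4 in hyperoxia and 49.2 to 58.9 in normoxia. Their part in the results was not tested.

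Cdk1, the kinase that drives entry into mitosis, read 0.45, 0.18, 0.10 and 0.22 in hyperoxia at 24 h and 2.68, 2.43, 2.43 and 2.70 in normoxia at 24 h. All 4 hyperoxia arrays lay below all 4 normoxia arrays. It fell by 2.32 ± 0.11 (SE) on the log2 scale, a signal 5.01-fold lower (limma adjusted p = 3.08e-09). A second Cdk1 probe, which shares 41 bases with the first, fell by 2.25 ± 0.15 (adjusted p = 6.92e-08 in a fit of all 36733 tested probes). A dim Cdk1 probe 1499 bases away was well above background on 15 of 16 arrays and had a log2 fold change of -0.70 ± 0.42 (adjusted p = 0.251), which did not pass the test.

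Wee1, the kinase that puts the inhibitory phosphate on CDK1, read 0.50, 0.57, 0.70 and 0.58 in hyperoxia at 24 h against 1.18, 1.16, 1.04 and 1.23 in normoxia at 24 h. The groups did not overlap. It fell by 0.56 ± 0.08 (adjusted p = 7.09e-05), a signal 1.48-fold lower.

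Cdc25c, a phosphatase that takes that phosphate off, read -3.92, -3.91, -4.28 and -4.05 in hyperoxia at 24 h, against -1.34, -1.62, -1.31 and -1.32 in normoxia at 24 h. The gap between the groups was wider than the spread within either. Cdc25c fell by 2.64 ± 0.14 (adjusted p = 5.13e-09), a signal 6.25-fold lower. Its processed signal was only 35.2 to 52.7 units in hyperoxia, against 225 to 269 in normoxia, and with a model-based background (normexp) the fall was 1.60 (adjusted p = 8.97e-09).

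Both activators of the APC/C were measured, and only Cdc20 passed the test. Cdc20, which starts the complex at the metaphase to anaphase step, read 1.87, 1.78, 1.53 and 1.51 in hyperoxia at 24 h and 4.04, 3.86, 3.8 and 4.01 in normoxia at 24 h, with no overlap. It fell by 2.26 ± 0.12, a signal 4.78-fold lower (adjusted p = 5.37e-09). Fzr1, whose protein (CDH1) keeps the complex active from late mitosis through G1, read 3.02, 3.02, 2.81 and 2.87 in hyperoxia at 24 h and 2.83, 3.09, 3.05 and 3.22 in normoxia at 24 h. These values overlap, and the log2 fold change was -0.12 ± 0.11 with a 95% confidence interval of -0.35 to 0.12 (adjusted p = 0.48). A dimmer Fzr1 probe, 500 bases away, fell by 0.33 ± 0.09 (adjusted p = 0.0134), so the probes differ in their call. The Cdc20 and Fzr1 changes were not compared with each other by a test, but their 95% intervals, -2.51 to -2.0 for Cdc20 and -0.35 to 0.12 for Fzr1, do not meet.

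Fbxo5 encodes EMI1, which holds the APC/C inactive from S phase until mitosis. It read -1.10, -1.27, -1.56 and -1.28 in hyperoxia at 24 h against 2.07, 1.66, 1.53 and 2.00 in normoxia at 24 h. The groups lay far apart. The fall of 3.12 ± 0.13 (adjusted p = 8.70e-10) was a signal 8.69-fold lower, and only 14 of the 25415 tested genes had a lower log2 fold change in this comparison.

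Both ubiquitin-conjugating enzymes fell, with 95% intervals of -2.03 to -1.45 for Ube2c and -0.85 to -0.18 for Ube2s. Ube2c, which places the first ubiquitins on APC/C targets, read 1.79, 1.45, 1.30 and 1.32 in hyperoxia at 24 h against 3.26, 3.11, 3.1 and 3.37 in normoxia at 24 h, with no overlap. It fell by 1.74 ± 0.14 (adjusted p = 2.78e-07), a signal 3.35-fold lower, and a second probe 460 bases away fell by 1.71 ± 0.16 (adjusted p = 2.29e-06). Ube2s, which lengthens the chains, read 5.42, 5.33, 5.23 and 5.49 in hyperoxia at 24 h and 6.10, 5.94, 5.46 and 6.04 in normoxia at 24 h. Normoxia replicate 3 lay within the hyperoxia values and the other 3 above them. Ube2s fell by 0.52 ± 0.16 (adjusted p = 0.0223), but the call was lost without normoxia replicate 1 (adjusted p = 0.0687), 2 (0.0507) or 4 (0.0624), or without hyperoxia replicate 3 (0.0634).

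Pttg1 encodes securin, the inhibitor of separase that the APC/C destroys at anaphase, and it moved opposite to the 8 genes that fell. It read 3.66, 3.69, 3.56 and 3.53 in hyperoxia at 24 h and 3.28, 3.35, 3.26 and 3.35 in normoxia at 24 h. The hyperoxia arrays all lay above the normoxia arrays. It rose by 0.30 ± 0.08 (adjusted p = 0.0136), a signal 1.23-fold higher. A dim second Pttg1 probe, 701 bases away, rose by 0.52 ± 0.10 (adjusted p = 0.00137).

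Espl1, which encodes separase, the protease that cuts cohesin, read -1.02, -1.19, -1.0 and -1.27 in hyperoxia at 24 h against 0.14, 0.02, 0.19 and 0.40 in normoxia at 24 h. The groups did not overlap. Espl1 fell by 1.31 ± 0.12 (adjusted p = 1.73e-06), a signal 2.47-fold lower. Securin and separase transcripts thus moved in opposite directions at 24 h.

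**Figure D2:**
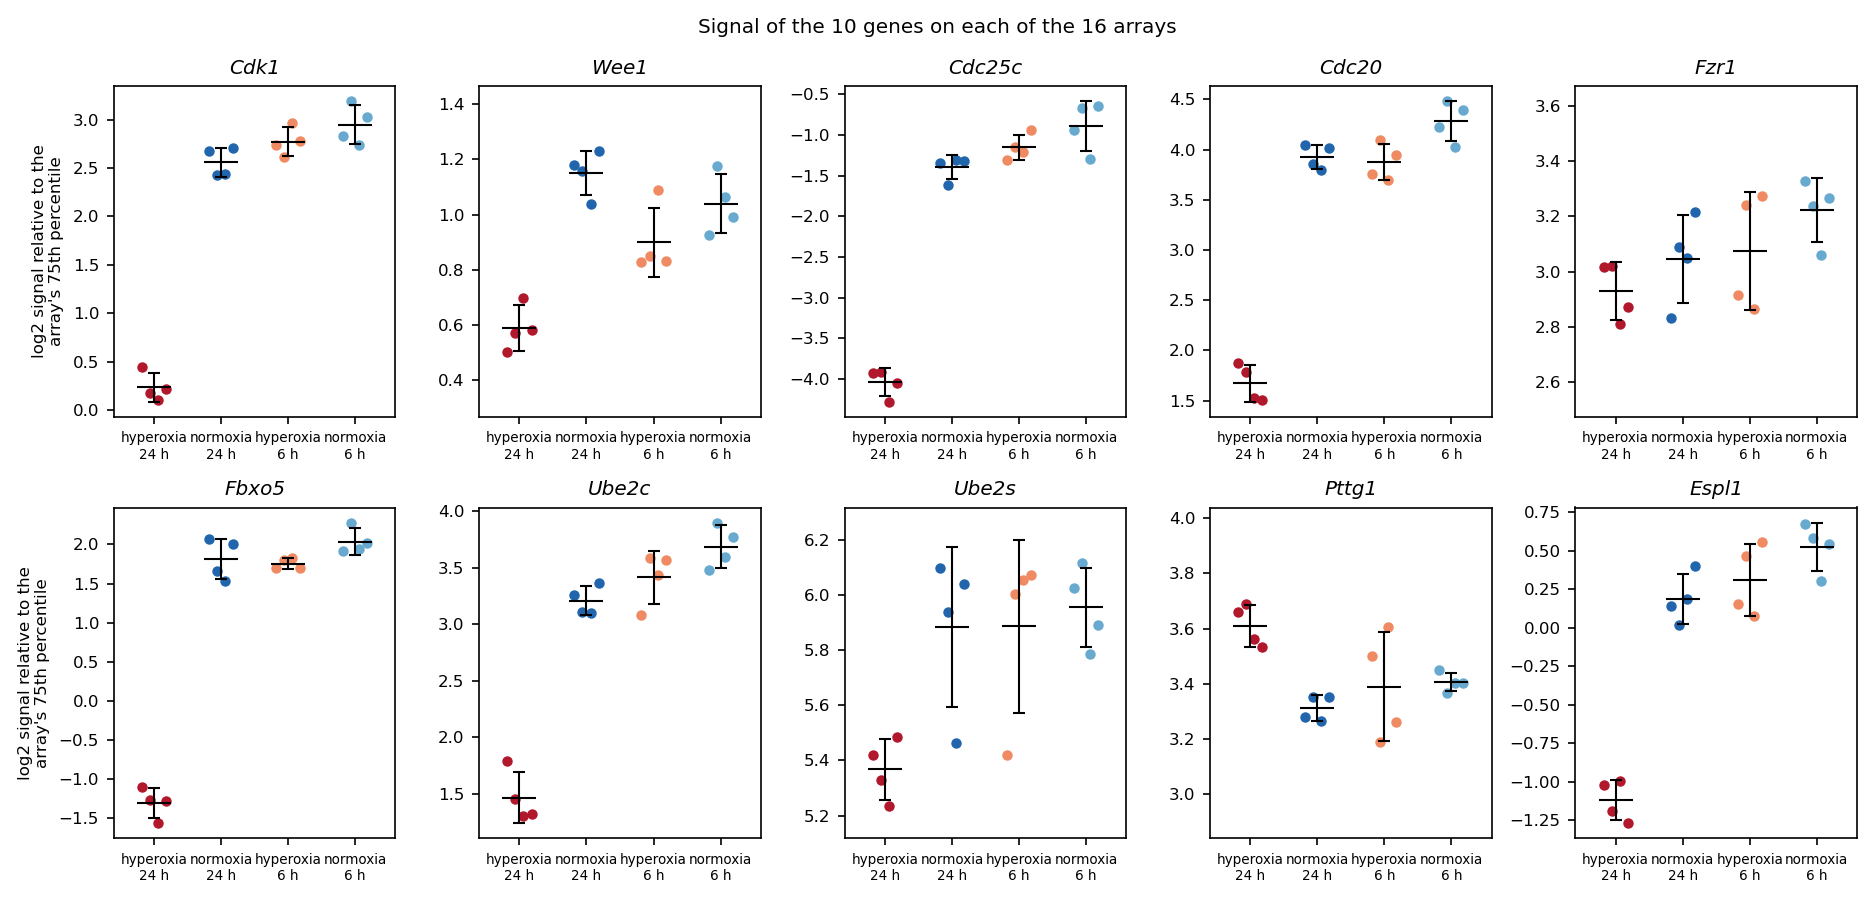
Log2 signal relative to the array's 75th percentile (y axis) of the 10 genes on each of the 16 arrays; points are arrays, bars the mean and SD of 4 arrays, and each panel has its own scale. Hyperoxia at 24 h has the lowest mean of 9 genes, with no overlap with any other group for 7 of them, and the highest mean of Pttg1.

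At 6 h none of the 10 genes passed the limma test between hyperoxia and normoxia, where 0.331% of all 25415 genes did (0.0905% lower, 0.24% higher). The 10 log2 fold changes were all below 0, from -0.41 (Cdc20) to -0.02 (Pttg1), with a median of -0.19 against 0.011 over all genes. Over other settings and probes the value reached 0.088 for Ube2s and 0.076 for Pttg1, and stayed below 0 for the other genes. At an unadjusted p under 0.05, 2 genes, Cdc20 and Fbxo5, were lower and none was higher, where 3.34% of all genes were lower and 4.03% higher. Hyperoxia and normoxia arrays did not overlap for 1 gene, Fbxo5, against 2% of all genes that were lower without overlap.

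Cdc20 read 3.76, 4.10, 3.70 and 3.94 in hyperoxia at 6 h and 4.23, 4.48, 4.03 and 4.39 in normoxia at 6 h, which overlap. Its log2 fold change was -0.41 ± 0.12 (unadjusted p = 0.00432, limma adjusted p = 0.296). Fbxo5 read 1.69, 1.80, 1.82 and 1.70 in hyperoxia at 6 h and 1.91, 2.28, 1.94 and 2.02 in normoxia at 6 h, with a log2 fold change of -0.28 ± 0.13 (unadjusted p = 0.0443, adjusted p = 0.657). The other 8 genes overlapped between the groups at 6 h, with log2 fold changes of -0.17 for Cdk1, -0.14 for Wee1, -0.26 for Cdc25c, -0.15 for Fzr1, -0.27 for Ube2c, -0.07 for Ube2s, -0.02 for Pttg1 and -0.21 for Espl1.

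**Figure D3:**
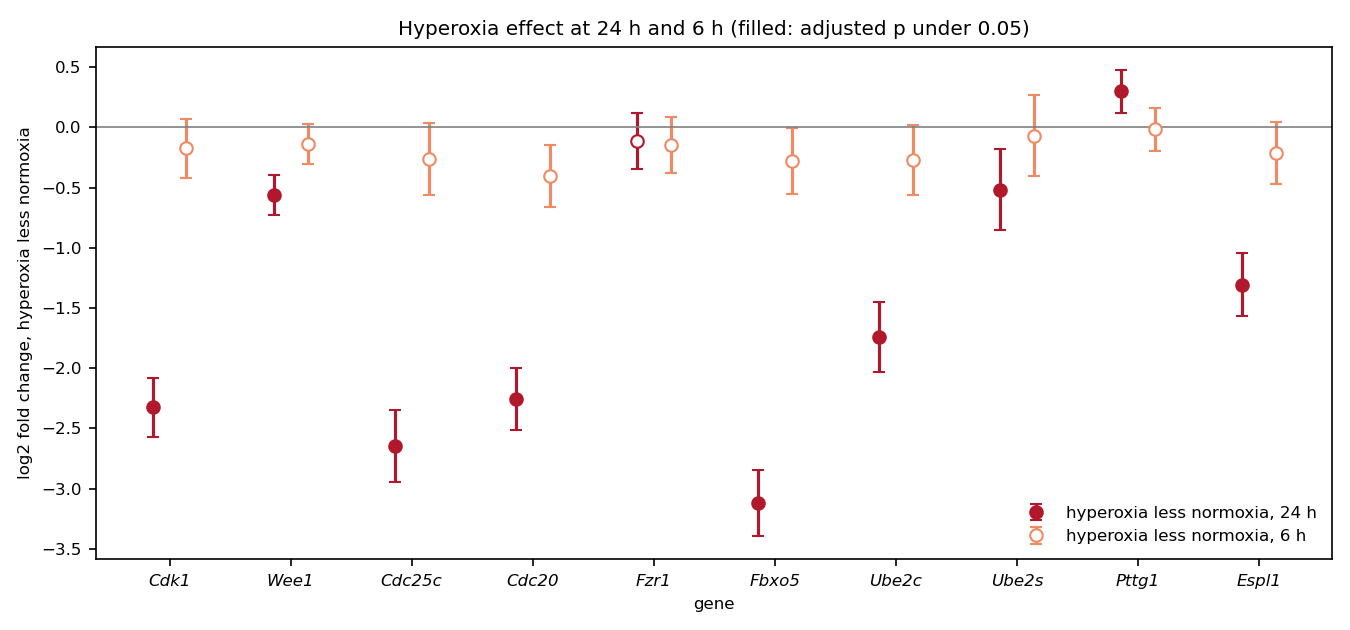
Log2 fold change of hyperoxia less normoxia (y axis) for each gene at 24 h (dark) and 6 h (light); bars are 95% confidence intervals and filled points have an adjusted p under 0.05. At 24 h 9 genes are filled, at 6 h none.

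Whether the hyperoxia effect differed between the times was tested directly, as the effect at 24 h less that at 6 h. Of the 10 genes 7 were lower in this difference and none was higher, where 5.63% of all genes were called lower and 6.62% higher (12.3% in either direction). The difference was -2.15 ± 0.16 for Cdk1, -0.42 ± 0.11 for Wee1, -2.38 ± 0.20 for Cdc25c, -1.85 ± 0.17 for Cdc20, -2.84 ± 0.18 for Fbxo5, -1.47 ± 0.19 for Ube2c and -1.09 ± 0.17 for Espl1. Adjusted p-values of these 7 lay between 5.50e-07 (Fbxo5) and 0.0207 (Wee1). For Ube2s the difference was -0.45 ± 0.22 (adjusted p = 0.224), for Pttg1 0.31 ± 0.12 (adjusted p = 0.0995) and for Fzr1 0.03 ± 0.15 (adjusted p = 0.922), none of which passed. The Ube2s difference passed without hyperoxia 6 h replicate 1 (-0.61, adjusted p = 0.0486) and that of Pttg1 without hyperoxia 6 h replicate 3 (0.39, adjusted p = 0.0151).

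Over time in hyperoxia, 8 of the 10 genes were lower at 24 h than at 6 h and 1, Pttg1, was higher, where 27.4% of all genes were called lower and 25% higher (52.4% in either direction). Marker sums also moved over time in hyperoxia without overlap. The fibroblast, macrophage, endothelium (18.8 to 21.6 at 24 h, 13.9 to 16.6 at 6 h) and neutrophil (59.3 to 71.0 at 24 h, 54.8 to 58.3 at 6 h) sums were higher at 24 h, and the type II and club and ciliated cell sums (41.0 to 50.8 at 24 h, 97.3 to 136 at 6 h) were lower. Of 7 fibroblast markers 6 rose, of 9 type II markers 7 fell, and of 6 macrophage markers Itgam and Cd68 rose while Adgre1 and Mrc1 fell. Of 5 neutrophil markers Elane rose while S100a8 and Mpo fell. Of 3 tested endothelium markers Kdr alone rose and none fell, and all 4 tested club and ciliated cell markers fell. Their part in the time results was not tested. The log2 fold change was -2.54 ± 0.11 for Cdk1, -2.89 ± 0.14 for Cdc25c, -3.06 ± 0.13 for Fbxo5, -2.20 ± 0.12 for Cdc20, -1.95 ± 0.14 for Ube2c and -1.43 ± 0.12 for Espl1. Their adjusted p-values lay between 6.14e-10 (Fbxo5) and 4.90e-07 (Espl1). It was -0.31 ± 0.08 for Wee1 (adjusted p = 0.00405) and -0.52 ± 0.16 for Ube2s (adjusted p = 0.0124). With the normexp background Cdc25c had -1.81 over time in hyperoxia and -1.35 for the difference of effects, and both still passed. The dim Cdk1 probe had -1.27 ± 0.42 over time in hyperoxia (adjusted p = 0.0219) and -0.11 ± 0.60 for the difference of effects (adjusted p = 0.934). Fzr1 did not pass with its main probe (-0.14 ± 0.11, adjusted p = 0.282). Its dimmer probe fell by 0.47 ± 0.09 (adjusted p = 0.000606) and the mean of its probes by 0.31 (adjusted p = 0.0158), so the Fzr1 call depends on the probe. These arrays are shared with the comparisons of oxygen above.

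The time call of Pttg1 in hyperoxia depended on the probe and on single arrays. Its main probe rose by 0.22 ± 0.08 (adjusted p = 0.0357), with 3.66, 3.69, 3.56 and 3.53 in hyperoxia at 24 h and 3.50, 3.19, 3.61 and 3.26 in hyperoxia at 6 h, which overlap. Without hyperoxia 24 h replicate 1 or 2, or hyperoxia 6 h replicate 2 or 4, the adjusted p was 0.0823, 0.0904, 0.113 or 0.106 in that order. The dim second probe was lower at 24 h than at 6 h both in hyperoxia (-0.65 ± 0.10, adjusted p = 0.000124) and in normoxia (-1.09 ± 0.10, adjusted p = 7.90e-06), while the main probe in normoxia had -0.09 ± 0.08 (adjusted p = 0.374). The 2 Pttg1 probes thus gave opposite directions over time in hyperoxia, and the same direction for hyperoxia against normoxia at 24 h.

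**Figure D4:**
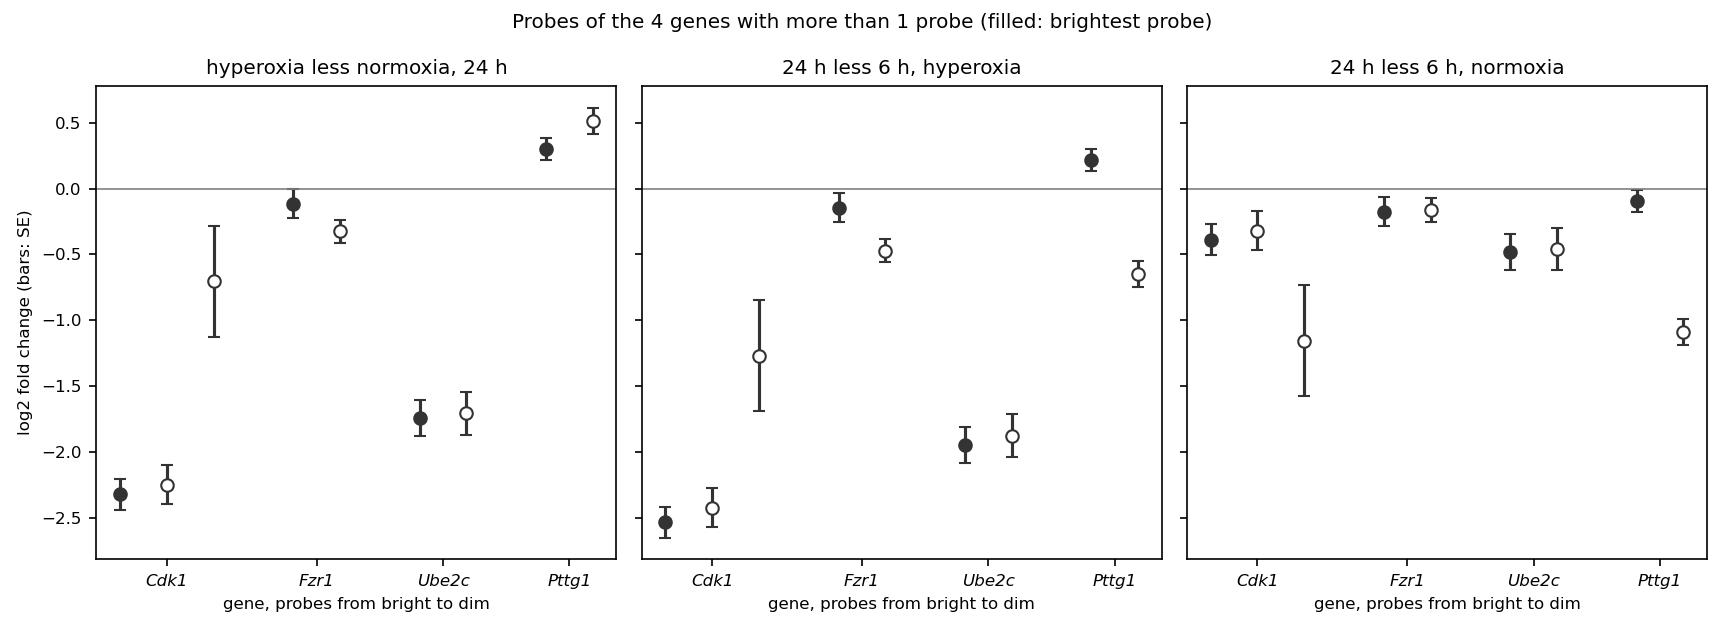
Log2 fold change (y axis, bars are SE) of every probe of Cdk1, Fzr1, Ube2c and Pttg1 in 3 comparisons, with the brightest probe filled and dimmer probes to its right. The Ube2c probes lie together, and the 2 Pttg1 probes are both above 0 for hyperoxia less normoxia at 24 h and on opposite sides of 0 for 24 h less 6 h in hyperoxia.

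Over time in normoxia, 5 of the 10 genes were lower at 24 h than at 6 h and none was higher, where 23.5% of all genes were called lower and 20.6% higher (44.2% in either direction). These were Cdk1 (-0.39 ± 0.11, adjusted p = 0.0138), Cdc25c (-0.51 ± 0.14, adjusted p = 0.00944), Cdc20 (-0.35 ± 0.12, adjusted p = 0.0279), Ube2c (-0.48 ± 0.14, adjusted p = 0.0112) and Espl1 (-0.34 ± 0.12, adjusted p = 0.0351). The second Cdk1 probe, which overlaps the first, had -0.32 ± 0.15 and did not pass (adjusted p = 0.101), the dim one had -1.16 ± 0.42 (adjusted p = 0.0403), and the mean of all Cdk1 probes fell by 0.62 (adjusted p = 0.018). All 5 calls were lost when arrays were scaled to their median in place of their 75th percentile, with falls of 0.13 to 0.30, and Wee1 was then higher (0.32, adjusted p = 0.00993). That scaling moved the median of all genes to 0.19 in this comparison, against -0.023. The Cdc20 and Espl1 calls were also lost without normoxia 24 h replicate 2 or 3 or normoxia 6 h replicate 2 or 4, and that of Espl1 also without normoxia 24 h replicate 1 or normoxia 6 h replicate 1, with adjusted p of 0.0626 to 0.0973. In hyperoxia the same scaling ended the time calls of Wee1 (-0.09, adjusted p = 0.416) and Ube2s (-0.30, adjusted p = 0.11). Marker sums also moved over time in normoxia: the fibroblast, macrophage and endothelium sums were higher at 24 h without overlap. The type II and club and ciliated cell sums were lower without overlap, and the neutrophil sum overlapped. Of 7 fibroblast markers 5 rose, and of 9 type II markers 6 fell and Etv5 rose. Of 6 macrophage markers Itgam rose while Adgre1 and Mrc1 fell. The proliferation sum was lower at 24 h in normoxia and hyperoxia alike. Their part was not tested.

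In the order of the 4 group means, hyperoxia at 24 h stood last for 9 genes and first for Pttg1. For Cdk1, Wee1, Cdc25c, Cdc20, Fbxo5, Ube2c and Espl1 its arrays did not overlap those of the next group, while the other 3 groups overlapped with their neighbours in that order. For Fzr1 and Ube2s every group overlapped with the next one. For Pttg1 the lowest group was normoxia at 24 h.

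CDK1 acts with cyclins and is fed by further kinases, and 12 of 14 partners and other regulators were lower in hyperoxia at 24 h, none higher, with a median log2 fold change of -1.10. Over all genes 12.8% were called lower and 15.5% higher at 24 h, the background for each list below. Plk1, the kinase that turns on CDC25C and prepares EMI1 for destruction, averaged 0.99 in hyperoxia and 4.14 in normoxia and fell by 3.15 ± 0.13 (adjusted p = 1.04e-09). Cks1b, a small CDK subunit, fell by 0.70 ± 0.07 (adjusted p = 2.44e-06), and Ensa, which the kinase greatwall turns into a phosphatase inhibitor, had -0.13 ± 0.06 (adjusted p = 0.153). At 6 h 0 of the 14 passed by limma, 4 being lower at an unadjusted p under 0.05. Over all genes 0.331% passed by limma at 6 h, and 3.34% were lower and 4.03% higher at that unadjusted p. Plk1 then had -0.60 ± 0.13 (adjusted p = 0.0865), which passed without hyperoxia 6 h replicate 2 (-0.72, adjusted p = 0.0243).

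Of 3 inhibitors of CDK1 that p53 induces, Cdkn1a was the one that rose at 24 h, by 1.84 ± 0.14 (adjusted p = 2.32e-07), averaging 5.83 in hyperoxia and 4.00 in normoxia. It encodes p21, an inhibitor of cyclin-dependent kinases, and at 6 h it rose by 1.11 ± 0.14 (adjusted p = 0.00195), averaging 4.73 in hyperoxia and 3.62 in normoxia. When only the 6 h arrays were fitted, its adjusted p was 0.0588. Gadd45a, a damage-induced gene, had 0.33 ± 0.14 at 24 h (adjusted p = 0.104), and 0.0447 with the replicate number as a block within each time. Under that block 2 of the 3 were higher and 1, Sfn, lower at 24 h, where 4719 of all 25415 genes were higher and 3763 lower. In the main fit Sfn had a log2 fold change of -0.45 at 24 h, which did not pass, though its unadjusted limma p was under 0.05.

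The mitotic checkpoint, which holds CDC20 back until chromosomes are attached, had 6 of 7 genes lower at 24 h and none higher (median -1.35). Ttk, its upstream kinase, averaged -5.16 in hyperoxia and -2.19 in normoxia and fell by 2.97 ± 0.15 (adjusted p = 3.97e-09). It was well above background on 2 of 4 hyperoxia and 4 of 4 normoxia arrays at 24 h, and with the normexp background its fall was 1.32 (adjusted p = 1.45e-08), so the size of the fall depends on the background correction. Bub3, a scaffold of the checkpoint, fell by 0.21 ± 0.05 (adjusted p = 0.00952), and Mad2l1bp, which takes the checkpoint complex apart, had -0.00079 ± 0.07 (adjusted p = 0.996). At 6 h 1 of the 7 was lower, Bub1b, which encodes the checkpoint component BUBR1, by 0.57 ± 0.10 (adjusted p = 0.0266). Over all genes 0.0905% were called lower at 6 h. With no filter on dim probes, with the 6 h arrays alone or with the replicate block within each time, 0 of the 7 were called at 6 h. The count was also 0 without normoxia 6 h replicate 1, 2 or 4 and without hyperoxia 6 h replicate 1 or 4.

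The core of the APC/C is built of subunits present through the cell cycle. Of 14 subunit genes, 13 were tested (Anapc10 did not pass the filter on dim probes), and at 24 h 6 were lower and 1 higher, with a median of -0.14 and a range of -0.38 to 0.31. Over all genes 12.8% were lower and 15.5% higher. Cdc16 fell by 0.38 ± 0.07 (adjusted p = 0.000769), and Anapc16 rose by 0.31 ± 0.07 (adjusted p = 0.00233). Of the 2 brightest, Anapc5 fell by 0.24 ± 0.07 (adjusted p = 0.021) and Anapc2, the cullin subunit, had -0.10 ± 0.07 (adjusted p = 0.309). The Anapc5 call was lost with the replicate block within each time (adjusted p = 0.0564), normexp background (0.0889) or median scaling (0.0581), and without any 1 of normoxia 24 h replicate 1 or 4 or hyperoxia 24 h replicate 2 or 4 (adjusted p of 0.0514 to 0.0624). At 6 h 0 of the 13 passed by limma, where 0.331% of all genes did. At an unadjusted p under 0.05, 1 was higher, as were 4.03% of all genes.

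Apart from Pttg1, 16 genes of proteins that the APC/C destroys were listed. At 24 h 16 of these 16 were lower in hyperoxia and none was higher, with a median of -2.06. Pttg1, whose protein the complex also destroys, was higher, as given above. Over all genes 12.8% fell. Aurkb, the kinase of the chromosomal passenger complex, averaged -4.78 in hyperoxia and -2.19 in normoxia and fell by 2.59 ± 0.14 (adjusted p = 4.76e-09), or by 1.25 with the normexp background (adjusted p = 4.69e-08). Rrm2, a subunit of ribonucleotide reductase, fell by 1.70 ± 0.12 (adjusted p = 1.53e-07), and Anln, the actin-binding protein of the cleavage furrow, by 1.96 ± 0.11 (adjusted p = 1.37e-08). At 6 h 0 of the 16 passed by limma, 9 being lower and 0 higher at an unadjusted p under 0.05, with a median of -0.32. Over all genes 0.331% passed by limma at 6 h, and 3.34% were lower and 4.03% higher at that unadjusted p.

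Cohesin, the ring that separase cuts, had 4 of 9 genes lower and 2 higher at 24 h, with a median of -0.029. Over all genes 12.8% were lower and 15.5% higher. Smc1a, which forms the arms of the ring, fell by 0.86 ± 0.08 (adjusted p = 2.71e-06), and Rad21, the subunit that separase cleaves, by 0.49 ± 0.11 (adjusted p = 0.00326). Wapl, the factor that takes cohesin off chromatin, rose by 0.40 ± 0.07 (adjusted p = 0.000372), as did the loader Nipbl by 0.30 ± 0.07 (adjusted p = 0.00376). Smc3 and Pds5a were the other 2 that fell, by 0.51 and 0.30. At 6 h 0 of the 9 passed by limma, and 0 did at an unadjusted p under 0.05. Over all genes 0.331% passed by limma at 6 h, and 3.34% were lower and 4.03% higher at that unadjusted p.

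**Figure D5:**
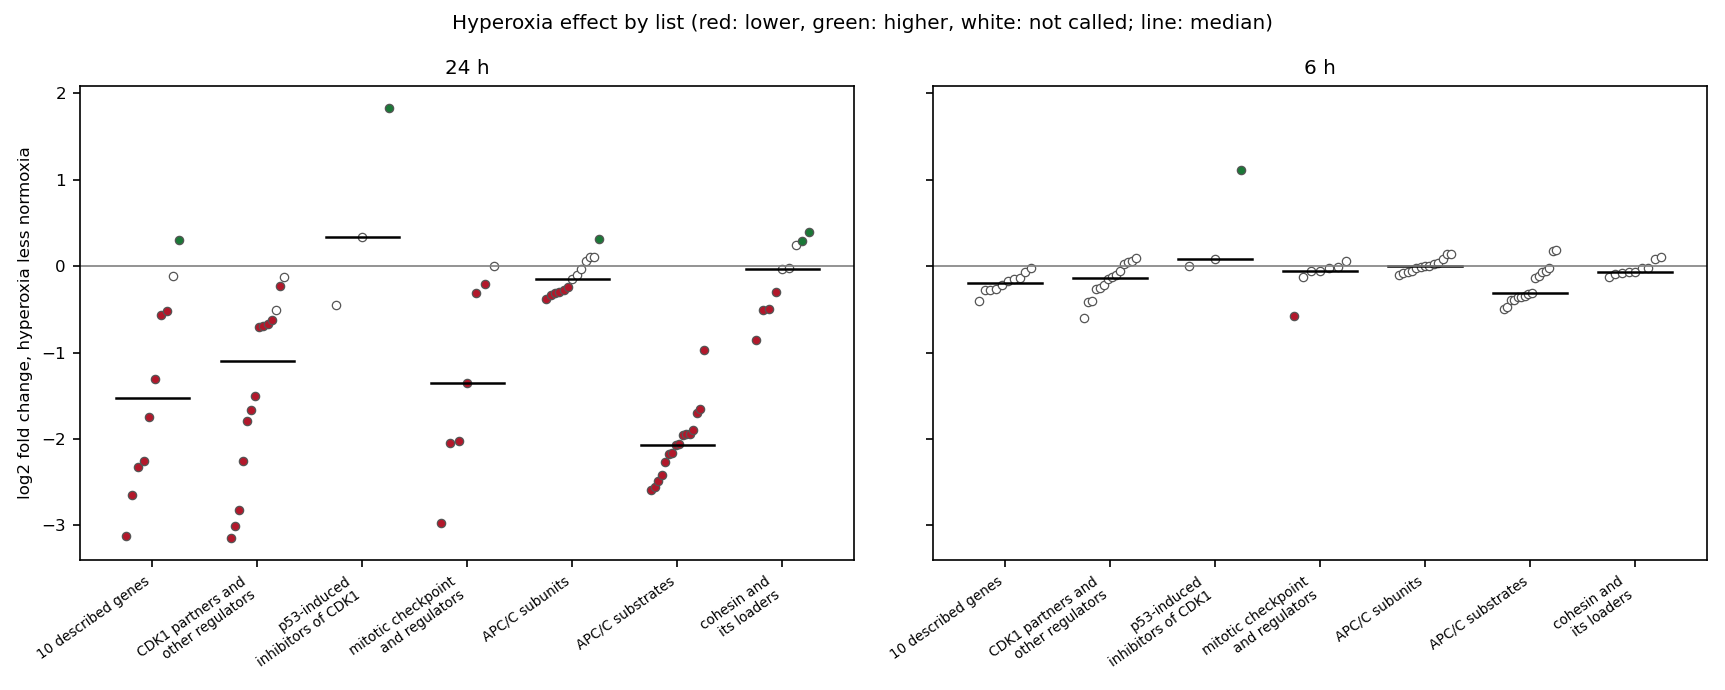
Log2 fold change of hyperoxia less normoxia (y axis) for each tested gene of the 10 described genes and of 6 lists, at 24 h (left) and 6 h (right); red points are called lower, green called higher, white not called, and the line is the median. At 24 h all 16 listed APC/C substrates, a list without Pttg1, are red, and the 13 subunits lie between -0.38 and 0.31.

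The genes most like each of the 10 in pattern were sought among the tested genes named through RefSeq. They were those with the highest Pearson correlation over the 16 arrays, which share groups, slides and processing. For Cdk1 these were Birc5, Cenpi, Ccnb2, Melk and Cip2a, with r of 0.997 to 0.999. The first gene was Plk1 for Cdc20 (0.998), Mki67 for Fbxo5 (0.998), Spag5 for Ube2c (0.996), Dlgap5 for Cdc25c (0.994) and Chaf1a for Espl1 (0.988). The first gene was Tcof1 for Wee1 (0.96), Zbtb45 for Fzr1 (0.935), Smco4 for Ube2s (0.947) and Nudt7 for Pttg1 (0.962), all below the r of the 6 genes before. Pttg1 was the member that correlated below 0 with each of the other 9, at -0.725 to -0.472.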

How the data were processed

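RNA of cells labelled as primary alveolar type II cells was measured on 16 one-colour Agilent arrays. The authors deposited 1 scanner table per array, made with Agilent Feature Extraction 10.7.3.1 per the submitters' processing notes. The deposited processed signal is an intensity per spot from which background was subtracted within the array, with no scaling between arrays, per the file headers. The authors also deposited a table of log2 values (43964 rows, median 7.19 on every array, r of 0.997 to 1.00 with the log2 processed signal), whose normalization is not given in the sources used here. It served as an alternative.

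Control spots and outlier spots were left out and spots of a probe averaged, leaving 55681 probes. The log2 signal was shifted so that each array's 75th percentile was 0. A gene took the values of the probe with the highest mean over 16 arrays, and genes entered the test where some group had 3 or more of its 4 arrays well above background for that probe. Tests were two-sided and used limma 3.58.1 in R 4.3.3, fitting a mean for each of the 4 groups (residual degrees of freedom 12, prior 2.23), with Benjamini-Hochberg adjustment over 25415 genes and a threshold of 0.05. The scripts were tested on simulated data. Probes were named through RefSeq accessions or symbols (GRCm38.p6) or else by the file's own name.

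Residuals of same-numbered hyperoxia and normoxia arrays correlated at 0.245 to 0.345 at 24 h, all over 0.1, so the numbers, which equal the slide column, pair the arrays there. At 6 h they correlated at 0.252 to 0.354 for replicates 1 to 3 and at 0.0864, under 0.1, for replicate 4. There 7 of 8 arrays were most like the array of their own number at the other oxygen level. Between times the correlation was no more than 0.0838. A fit with the number as a block was therefore an alternative. Other alternatives were normexp background, quantile and median scaling, the authors' table, other filters, all probes averaged, array weights, the compared arrays alone and leaving out each array.

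The members and gene lists were chosen with earlier results of these data known. All 10 members are named, and of each list at most the called gene with the largest rise, that with the largest fall and the 2 brightest, plus genes beside a count of 5 or fewer. The number of arrays limits the precision. Distances between probes of a gene come from the array's own probe coordinates, which are not printed, since the files name no genome build for them.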

Additional observations from a re-analysis of the deposited data

Results flagged for a closer look

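In 3 of 40 gene-by-group sets of 4 arrays, 1 array stood far from the other 3, and chance gives about 1 in 20. Wee1 read 1.09 on hyperoxia 6 h replicate 3, against 0.83 to 0.85 on the other 3 arrays. Cdc25c read -1.62 on normoxia 24 h replicate 2, against -1.34 to -1.31 on the others. Ube2s read 5.42 on hyperoxia 6 h replicate 1, against 6.00 to 6.07 on the others.

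For 7 genes the hyperoxia effect at 24 h differed from that at 6 h by the interaction test in limma. The difference, 24 h less 6 h, was -2.84 for Fbxo5, -2.38 for Cdc25c, -2.15 for Cdk1, -1.85 for Cdc20, -1.47 for Ube2c, -1.09 for Espl1 and -0.42 for Wee1. The Wee1 difference did not pass with median scaling (-0.41, adjusted p = 0.062), and for Cdk1 the dim probe had a difference of -0.11 (adjusted p = 0.934).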

How the results depend on the processing

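At 24 h the number of genes called between hyperoxia and normoxia was 8 to 9 of 10 over 19 alternatives, and at 6 h it was 0 in all 19. Over all genes, 25415 in most alternatives, 6056 to 8608 were called at 24 h and 29 to 565 at 6 h. The count of the 10 was 7 to 10 over time in hyperoxia, where 11728 to 14890 of all genes were called. For the difference of effects it was 6 to 9, where 2479 to 5740 of all genes were called. Over time in normoxia the count of the 10 was 5 and ranged from 1 to 7, where 9380 to 13612 of all genes were called. It was 1 under median scaling (Wee1, higher), where 13513 of all were called, and 3 to 5 when 1 array was left out. Pttg1 over time in hyperoxia reversed with all probes averaged (-0.21, adjusted p = 0.0352) and with its other probe (-0.65, adjusted p = 0.000124); the cause was not tested. Its rise there with the main probe was lost with quantile normalization (adjusted p = 0.0583), the authors' table (0.0587), no filter (0.0561) or those arrays alone (0.124). The Pttg1 difference of effects passed with normexp (0.43, adjusted p = 0.0286), quantile normalization, the authors' table, the mean of probes and array weights, and that of Ube2s with array weights (-0.58, adjusted p = 0.0396).

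With the replicate block within each time, which is a paired fit at 24 h, 9 of 10 genes were called at 24 h and 0 at 6 h. Over all 25415 genes that block called 8482 at 24 h and 94 at 6 h. The block changed no call of the 10 genes, and Plk1 passed at 6 h (-0.60, adjusted p = 0.0453). There the pair of replicate 4 alone missed the limit set for pairing. In the main fit 84 of all genes were called at 6 h, against 565 with array weights and 29 with the 6 h arrays alone. The difference of effects called 3115, against 5740 with array weights. Without hyperoxia 6 h replicate 3 these counts were 193 and 4970, and leaving out any other 6 h array gave 44 (without normoxia replicate 4) to 76 at 6 h. Over time in hyperoxia 6352 genes were higher and 6958 lower, against 10682 and 4208 with median scaling and 7818 and 4611 with normexp. In normoxia 5246 were higher and 5979 lower, against 10104 and 3409 with median scaling and 8524 and 3643 with normexp. Low signal limits the values of Ttk, Aurkb, Cdc25c and the dim Cdk1 and Pttg1 probes.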

Other observations

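Within groups, after each group's mean was taken off, some of the 10 genes still varied together over the 16 arrays. Cdk1 and Fbxo5 had a residual r of 0.795, Cdc20 and Ube2c 0.778, and Fzr1 and Espl1 0.73, while Espl1 and Pttg1 had -0.512. These are descriptions over arrays that share a slide and processing, and no cause was tested.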
